A study of Mus musculus with 7 samples.

Results

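Immediate early genes are the first genes that a cell transcribes after a growth factor, a cytokine, light, stress or handling reaches it, and 10 of them were followed here in the newborn mouse incisor. They were Fos, Fosb, Jun, Junb, Egr1, Atf3, Ier2, Dusp1, Nr4a1 and Zfp36, a set fixed by gene name with no threshold on any measured value, out of 25700 genes in the count tables. RNA was sequenced from the dental epithelium of the lower incisors of newborn pups (PN0), freed with Dispase at 2 mg/ml and snap-frozen. There were 4 libraries from pups of genotype K14cre cre/+; Nogo-A fl/fl, named K14;Nogo-A (replicates 1, 2, 7 and 10) and called mutant below, and 3 libraries from wild-type pups, labelled wt (replicates 3, 8 and 9). For every library, epithelium from the 2 lower incisors of 1 pup was combined. No treatment was given, and the comparison asks whether early gene RNA depends on Nogo-A, a membrane protein encoded by the gene Rtn4, in the epithelium. The K14 promoter drives Cre in epithelium that expresses keratin 14, so other cells in a library keep the gene. The labels say wild-type and give no Cre or floxed allele for these pups, so Cre and the loss of Nogo-A cannot be told apart. Another wild-type animal belonging to the study was not used here.

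The libraries held 20929207 to 41219439 counts. Rtn4 as a whole had 327 ± 21.3 CPM (SD, n = 4 pups, with CPM the counts of a gene relative to the scaled library total) in mutants and 301 ± 39.1 CPM (SD, n = 3) in wild-type, a gene total that also counts the isoforms outside the deleted exon and so does not check the deletion. All 10 epithelial markers were tested, and their mean log2 CPM was 7.97 to 8.25 in mutants and 7.78 to 8.15 in wild-type. Other cells were present too. The mean of 12 mesenchyme markers was 7.85 to 8.30 in mutants and 8.61 to 8.74 in wild-type, all 12 with a negative log2 fold change, and the 8 endothelium markers were at 4.17 to 4.93 and 4.89 to 5.01, also all negative. The 8 ameloblast markers were at 8.11 to 9.68 in mutants and 7.65 to 8.28 in wild-type. The 10 immune markers lay at 1.52 to 2.21 and 1.85 to 2.44, the 6 erythroid markers tested of 7 at 3.40 to 5.07 and 4.16 to 5.14, the 6 Schwann cell and neuron markers of 7 at 0.63 to 1.80 and 0.73 to 2.07, and the 5 muscle markers of 8 at -0.78 to 1.66 and 0.17 to 0.83. No marker of these lists was at 0 in every library. Mutant replicate 1 and wild-type replicates 3 and 8 had Y-linked RNA (mean log2 CPM of 4 genes 5.27, 5.13 and 4.94) and the other 4 libraries had next to none (-3.71 to -3.04). In bulk RNA, fewer cells of a type and less RNA per cell cannot be told apart, and this holds for every value below.

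The early genes divide by what their proteins do. Fos, Fosb, Jun and Junb are subunits of AP-1, a dimer that binds DNA through a basic leucine zipper, and Atf3 is a related leucine zipper protein that pairs with Jun proteins. Egr1 is a zinc finger transcription factor, Nr4a1 an orphan nuclear receptor, and Ier2 a small nuclear protein. Dusp1 and Zfp36 close the loop: Dusp1 is a phosphatase that switches off MAP kinases, and Zfp36 binds AU-rich elements in short-lived messages and speeds their decay. The genes need no new protein for their induction, since factors already bound near their starts, such as serum response factor with its ternary complex partners and proteins of the CREB and ATF family, are activated by kinases. Their RNA lives for minutes, so its level at harvest depends on the last signals the tissue met.

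The sequence before the start site of 8 of the 10 genes was in the promoter table (RefSeq, GRCm38.p6), and 6 are printed, without Fosb and Junb. Each is the 250 bases before the annotated start, 5′ to 3′ on the gene's strand, with capitals marking TGACG on either strand (the core of the cAMP response element), TGACATCA (the variant bound by Jun and ATF proteins) and the CArG box of serum response factor.
Fos, chr12:85473640-85473889, plus strand: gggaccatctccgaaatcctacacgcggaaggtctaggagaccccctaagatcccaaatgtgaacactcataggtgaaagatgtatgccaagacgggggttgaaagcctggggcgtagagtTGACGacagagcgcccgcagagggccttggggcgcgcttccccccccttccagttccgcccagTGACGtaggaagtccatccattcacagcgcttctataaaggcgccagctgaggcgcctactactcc
Jun, chr4:95052223-95052472, minus strand: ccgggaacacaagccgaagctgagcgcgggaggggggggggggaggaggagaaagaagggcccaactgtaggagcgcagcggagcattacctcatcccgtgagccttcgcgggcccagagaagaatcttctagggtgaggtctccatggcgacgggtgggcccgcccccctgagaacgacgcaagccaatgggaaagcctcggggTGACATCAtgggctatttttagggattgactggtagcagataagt
Atf3, chr1:191183334-191183583, minus strand: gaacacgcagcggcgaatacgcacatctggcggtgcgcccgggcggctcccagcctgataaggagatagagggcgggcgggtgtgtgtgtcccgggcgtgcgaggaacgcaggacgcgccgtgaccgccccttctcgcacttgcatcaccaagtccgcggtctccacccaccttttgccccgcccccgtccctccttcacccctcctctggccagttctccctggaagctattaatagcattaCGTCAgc
Dusp1, chr17:26508473-26508722, minus strand: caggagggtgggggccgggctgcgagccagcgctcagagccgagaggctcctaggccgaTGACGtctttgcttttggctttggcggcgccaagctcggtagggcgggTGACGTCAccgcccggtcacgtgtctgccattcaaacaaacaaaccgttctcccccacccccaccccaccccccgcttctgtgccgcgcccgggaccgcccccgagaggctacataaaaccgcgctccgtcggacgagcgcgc
Nr4a1, chr15:101266596-101266845, plus strand: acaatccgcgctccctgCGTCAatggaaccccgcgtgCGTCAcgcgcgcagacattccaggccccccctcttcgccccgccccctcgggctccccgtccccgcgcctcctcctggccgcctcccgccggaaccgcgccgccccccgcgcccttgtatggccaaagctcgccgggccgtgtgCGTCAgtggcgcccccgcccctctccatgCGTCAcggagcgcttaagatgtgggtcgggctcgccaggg
Zfp36, chr7:28379229-28379478, minus strand: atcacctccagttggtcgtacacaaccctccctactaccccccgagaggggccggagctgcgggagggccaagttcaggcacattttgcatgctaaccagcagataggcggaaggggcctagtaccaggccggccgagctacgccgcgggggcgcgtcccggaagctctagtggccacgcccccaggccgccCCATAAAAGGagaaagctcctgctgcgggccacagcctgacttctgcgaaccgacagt
The 8 windows were searched on both strands, and the same search over the windows of 27025 genes gives the background. TGACG was present before 6 of the 8 genes (Fos, Fosb, Junb, Atf3, Dusp1 and Nr4a1) and before 19.8% of all genes. Its full palindrome TGACGTCA, which contains TGACG, was found before Dusp1 and before 1.77% of all genes. TGACATCA was found before Jun, ending 37 bases from the start, and before 3.41% of all genes. A CArG box was found before Zfp36, 48 bases from the start, and before 1.62% of all genes. The AP-1 site in either form, TGACTCA or TGAGTCA, was in none of the 8 windows and in 5.16% of all. CCGGAA, an ETS core, was found before Nr4a1 and Zfp36 (13.6% of all genes), an EGR site, GCGGGGGCG or GCGTGGGCG, before Fosb, Nr4a1 and Zfp36 (3.48% of all), and TATAAA before Fos (14.3% of all). A missing match says only that these letters are not in this window.

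All 10 genes had RNA in every library, over a wide range of levels. In RPKM (CPM divided by the exon length in kilobases, mean ± SD over 7 libraries), Ier2 stood at 35.9 ± 2.82, Junb at 17.1 ± 1.77, Jun at 15.4 ± 3.51, Dusp1 at 10.7 ± 1.51 and Egr1 at 9.97 ± 4.14. Zfp36 followed at 7.61 ± 1.25, Fos at 6.59 ± 1.66, Nr4a1 at 2.76 ± 0.356, Atf3 at 2.21 ± 0.697 and Fosb at 0.179 ± 0.0888. The order was clear at 3 steps, where the ranges of neighbours did not overlap: Ier2 was above Junb, Fos above Nr4a1, and Atf3 above Fosb in all 7 libraries. Jun was also above Dusp1 in all 7 although their ranges overlapped. Elsewhere neighbours changed places: Junb was above Jun in 5 of 7 libraries, Dusp1 above Egr1 in 4, Egr1 above Zfp36 in 5, Zfp36 above Fos in 6 and Nr4a1 above Atf3 in 6. Fosb rested on 8 to 47 counts per library, for which counting error alone is 35.4% of the value at the low end, and Atf3 on 69 to 239 counts (12.0% at the low end). The other 8 genes had 171 counts or more in every library.

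**Figure D1:**
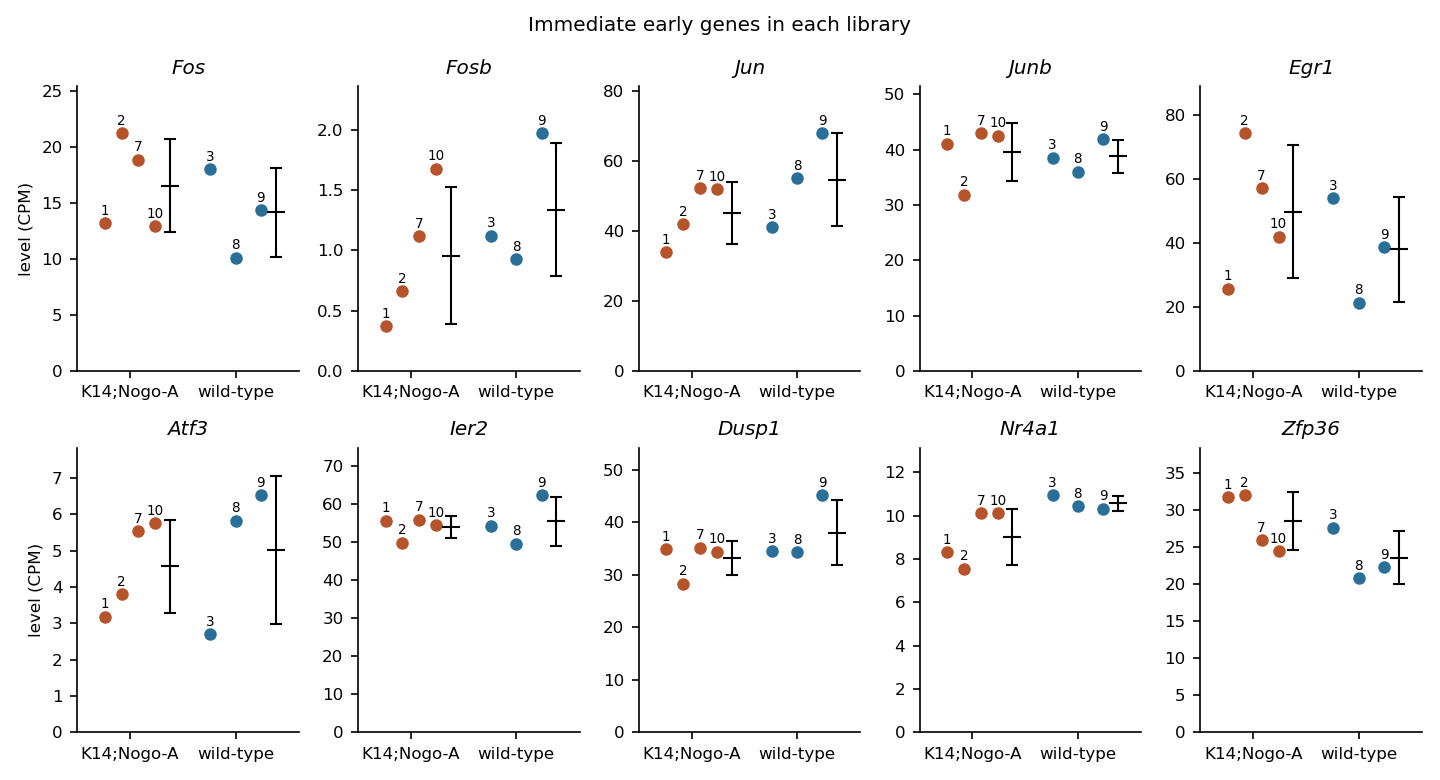
Level of each early gene in CPM (vertical axes, each from 0) in the 4 K14;Nogo-A and 3 wild-type libraries, each point 1 pup with its replicate number and the bar the mean ± SD. The genotypes overlap for every gene but Nr4a1, and Egr1, Atf3 and Fosb spread most.

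None of the 10 early genes passed a test of the difference between the genotypes in the comparison without covariates. Of 14791 genes tested, edgeR's quasi-likelihood test called 5 at an adjusted p under 0.05 (0.0338%), and 0 of the 10 early genes were among them. At an unadjusted p under 0.05, 12.9% of all genes passed and again 0 of the 10. At the thresholds of the study, an unadjusted p of at most 0.05 and a change of 0.5 or more on the log2 scale in either direction, 4.77% of all genes passed and 0 of the 10. The likelihood-ratio test of edgeR called 1.12% of all genes, DESeq2 2.2% of the 13068 to which it gave an adjusted p, and limma-voom 0.027%. All 3 called 0 of the 10 early genes, with no adjusted p for Fosb in DESeq2, and gave 0 at an unadjusted p under 0.05. Other settings gave some at that unadjusted level: 3 with the Y-linked level as a covariate (Jun, Fosb and Zfp36), 2 without wild-type replicate 3 (Jun and Zfp36), 1 without mutant replicate 10 (Zfp36) and 1 with the mean of the mesenchyme markers as a covariate (Jun). The adjusted p was 0.22 or more in all of them. The mesenchyme mean does not overlap between the genotypes, so a fit with it, here and below, cannot cleanly tell genotype from that mean. The log2 fold changes of mutant over wild-type were positive for 4 genes and negative for 6, with a median of -0.07, beside -0.01 over all genes tested. Adjusted p-values in edgeR lay between 0.43 and 0.94.

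**Figure D2:**
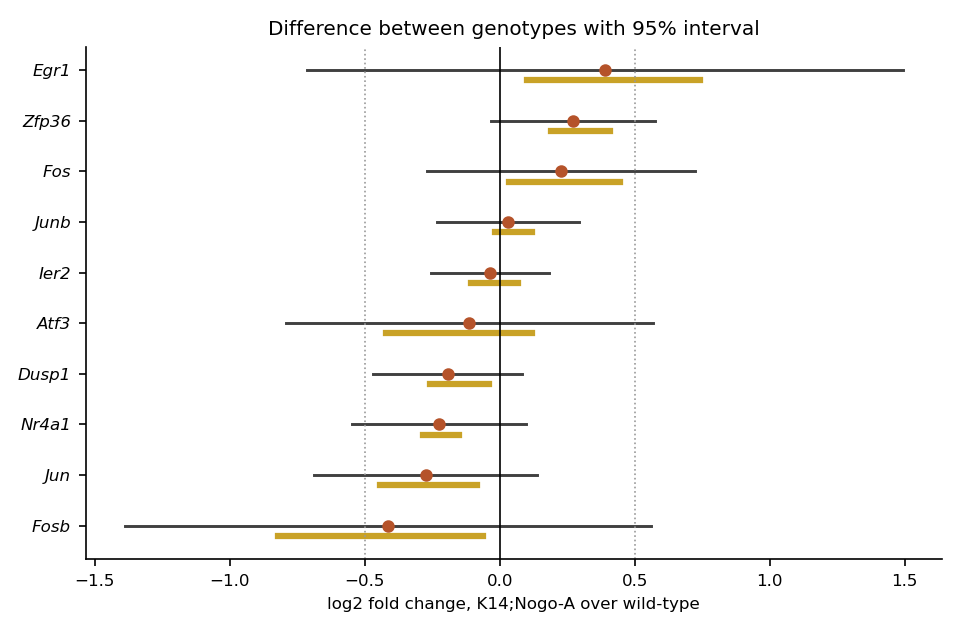
Log2 fold change of mutant over wild-type for each early gene (point) with its 95% interval from edgeR (dark line) and the range of estimates when each library was left out in turn (yellow line). Dotted lines mark a change of 0.5 on the log2 scale. All 10 intervals span 0, and those of Junb, Ier2 and Dusp1 stay inside the dotted lines.

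The data bound a change tightly for some genes and loosely for others. For Ier2 the log2 fold change was -0.04 (standard error 0.10), and its 95% interval, as a fold of wild-type, ran from 0.837 to 1.14. For Junb it was 0.03 with a standard error of 0.12, and the interval ran from 0.852 to 1.22. For Dusp1 it was -0.19 with a standard error of 0.13, and from 0.723 to 1.06. These are the 3 genes whose interval stayed within 0.5 on the log2 scale on both sides. At the other end, the interval of Egr1 ran from 0.610 to 2.82 of wild-type and that of Fosb from 0.382 to 1.48, so for these genes large changes in either direction lay inside the interval. The limits moved with single libraries: without wild-type replicate 9 the upper limit on the log2 scale was 0.30 for Ier2 and 0.23 for Dusp1, and without wild-type replicate 3 the lower limit for Dusp1 was -0.57.

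Among the Fos proteins, Fos, the prototype of the family, measured 13.2, 21.2, 18.8 and 12.9 CPM in mutant replicates 1, 2, 7 and 10 and 18.0, 10.1 and 14.3 CPM in wild-type replicates 3, 8 and 9. The highest libraries were mutant replicates 2 and 7 and wild-type replicate 3, and the genotypes overlapped over most of their range. The log2 fold change was 0.23 (standard error 0.22), and the adjusted p was 0.70 in edgeR. Fosb, whose product also has a truncated splice form, measured 0.369, 0.663, 1.12 and 1.68 CPM in mutants and 1.12, 0.926 and 1.97 CPM in wild-type. Its lowest 2 libraries were mutant replicates 1 and 2 and its highest was wild-type replicate 9, a span of 5.33-fold. The log2 fold change was -0.41 (standard error 0.45), and the adjusted p was 0.73 in edgeR.

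Jun, the partner that lets Fos proteins bind DNA, measured 33.9, 41.9, 52.2 and 51.9 CPM in mutants and 41.01, 55.0 and 67.8 CPM in wild-type. Mutant replicate 1 was lowest and wild-type replicate 9 highest, 2.00 times as high, with the remaining libraries mixed. The log2 fold change was -0.27 (standard error 0.19), and the adjusted p was 0.56 in edgeR. Leaving out wild-type replicate 9 brought the estimate to -0.08, and leaving out wild-type replicate 3 brought it to -0.44. With the mesenchyme mean as a covariate it was -1.04 (unadjusted p = 0.043, adjusted p = 0.59 in edgeR), past the study's thresholds. Junb, which pairs with Fos proteins but activates many AP-1 sites less than Jun, measured 41.03, 31.9, 42.9 and 42.5 CPM in mutants and 38.5, 36.0 and 41.9 CPM in wild-type. Mutant replicate 2 was lowest and the other 6 libraries ran from 36.0 to 42.9 CPM. Atf3 measured 3.18, 3.80, 5.55 and 5.76 CPM in mutants and 2.696, 5.82 and 6.53 CPM in wild-type. Its libraries fell at 2 levels, with mutant replicates 1 and 2 and wild-type replicate 3 low and the other 4 high, and both genotypes were in both. The log2 fold change was -0.11 (standard error 0.31), and the adjusted p was 0.91 in edgeR. The sign turned without mutant replicate 1, wild-type replicate 8 or wild-type replicate 9.

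Egr1, which binds GC-rich sites in growth factor and matrix genes, varied most among the 8 genes with a mean of at least 5 CPM. It stood at 25.7, 74.2, 57.2 and 42.0 CPM in mutants and 54.0, 21.3 and 38.7 CPM in wild-type. Both genotypes held high and low libraries, and the highest, mutant replicate 2, was 3.48 times the lowest, wild-type replicate 8. The log2 fold change was 0.39 (standard error 0.45, with an adjusted p of 0.76 in edgeR), and leaving out 1 library at a time moved it between 0.10, without wild-type replicate 8, and 0.74, without wild-type replicate 3. With the mean of the mesenchyme markers as a covariate the sign turned for Egr1, to -1.62 (adjusted p = 0.66 in edgeR), and for Fos, to -0.69 (adjusted p = 0.75). Ier2 was the steadiest of the 10, at 55.6, 49.9, 55.9 and 54.5 CPM in mutants and 54.3, 49.6 and 62.4 CPM in wild-type, a span of 1.26-fold.

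Nr4a1, the nuclear receptor, was the single gene of the 10 whose genotypes did not overlap, and 11.5% of all genes tested were separate in the same way. It measured 8.31, 7.56, 10.1 and 10.1 CPM in mutants and 10.9, 10.4 and 10.3 CPM in wild-type. Mutant replicates 1 and 2 were low, while mutant replicates 7 and 10 came just under the lowest wild-type library. The log2 fold change was -0.23 (standard error 0.15, 95% interval -0.55 to 0.10, adjusted p = 0.54 in edgeR). The exact two-sided permutation test, which doubles the smaller tail, gave p = 0.0571, the smallest value that 4 against 3 libraries allow. The mean of the mesenchyme markers also separated the genotypes, with the mutants lower, as did 5 of the 12 markers singly. With that mean as a covariate the log2 fold change of Nr4a1 was -0.13 (adjusted p = 0.95 in edgeR). A cause of the separation was not tested.

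Of the genes that end the response, Dusp1 measured 34.9, 28.3, 35.2 and 34.4 CPM in mutants and 34.6, 34.3 and 45.2 CPM in wild-type. All libraries but mutant replicate 2, the lowest, and wild-type replicate 9, the highest, were within about 1 CPM of each other. Zfp36 measured 31.7, 32.0, 25.9 and 24.5 CPM in mutants and 27.7, 20.8 and 22.3 CPM in wild-type. The 2 highest libraries were mutant and the 2 lowest wild-type, with the 3 others between them mixed. It had the smallest p of the 10 genes: its log2 fold change was 0.27 (standard error 0.14, 95% interval -0.03 to 0.58, adjusted p = 0.43 in edgeR). No other member's adjusted p was below that of Zfp36.

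The spread between pups was uneven among the genes. The SD of log2 CPM within genotypes, pooled over both, was 0.67 for Egr1, and of 11289 genes with a mean of at least 5 CPM only 0.921% had a larger one. It was 0.38 for Fos (4.33% of genes larger) and 0.33 for Jun (7.46%). Fosb had 0.75 and Atf3 0.54, but these means lie below 5 CPM, where counting error adds to the spread. Zfp36 at 0.20, Dusp1 at 0.18, Junb at 0.17 and Nr4a1 at 0.16 were near the median of those genes, 0.16, and Ier2 at 0.12 was under it, with 69.8% of genes more variable. In all, 9 of the 10 genes were above that median.

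No library was high or low for all 10 genes. Wild-type replicate 9 was highest for 5 of them and lowest for none. Mutant replicate 2 was highest for 3 and lowest for another 3, and wild-type replicate 8 was lowest for 4 and highest for none. Across the 45 pairs of genes, Pearson r of log2 CPM over the 7 libraries had a median of 0.27 and ran from -0.86 to 0.94, with 26 pairs positive and 19 negative. None of the 45 passed an adjusted p of 0.05 in the exact permutation test, the smallest being 0.125, and 6 had an unadjusted p under 0.05. The r values below are given as descriptions. The genotypes have 4 and 3 libraries, too few to recompute r within each. For some pairs r after centring each genotype on its own mean stands beside the pooled value. All other r values below, with those of the wider early genes and of the marker lists, are pooled over the genotypes without centring.

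**Figure D3:**
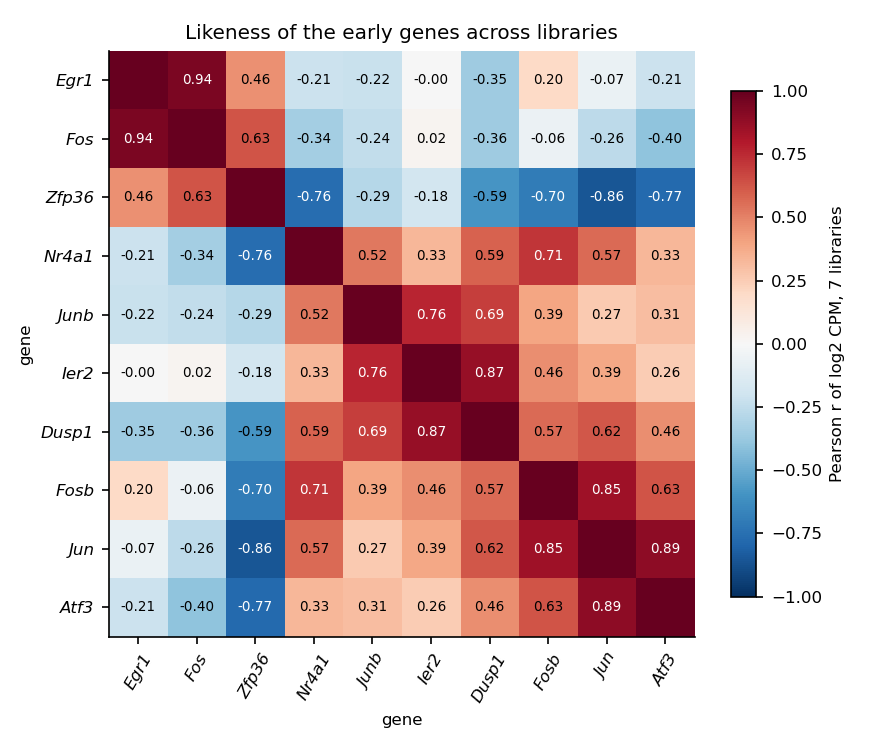
Pearson r of log2 CPM over 7 libraries for each pair of early genes (colour from -1 to 1, value in each cell). The highest values are those of Egr1 with Fos, Jun with Atf3, Ier2 with Dusp1 and Jun with Fosb, and Zfp36 is negative with Jun and Atf3.

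Fos and Egr1 ordered the pups in nearly the same way. Mutant replicates 2 and 7 and wild-type replicate 3 were the top 3 libraries for both, and wild-type replicate 8 was the lowest for both. Pearson r was 0.94 (exact permutation p = 0.00278, adjusted p = 0.125 over 45 pairs) and Spearman rho 0.89 (exact permutation p = 0.0123, adjusted p = 0.185). With each genotype centred r was 0.93, and without the 2 libraries farthest from the median of Fos it was 0.81. Among 11288 genes of at least 5 CPM, Fos took place 16 in likeness to Egr1. Egr1 was chosen for this ranking after its values were seen.

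Jun kept a different order, with r of -0.07 to Egr1 and -0.26 to Fos. Its closest companion was Atf3, at r of 0.89 (exact permutation p = 0.00952, adjusted p = 0.214), rho of 0.93 and a centred r of 0.95, and r was 0.94 without the 2 libraries farthest from the median of Jun. Fosb followed Jun at r of 0.85, which fell to 0.41 without the 2 libraries farthest from the median of Fosb, so that relation rests on them. Zfp36 ran against Jun at r of -0.86 (centred -0.83, and -0.84 without the 2 farthest) and against Atf3 at -0.77 (centred -0.92). Ier2 and Dusp1 made a further pair at r of 0.87 (centred 0.93), and Junb went with Ier2 at 0.76, a value that fell to 0.29 without the 2 farthest libraries. Among the printed promoters, TGACG stands before Atf3, Dusp1 and Nr4a1 and also before Fos, whose r with Jun and Atf3 was -0.26 and -0.40. Egr1 and Ier2 had no promoter window, and a relation between motifs and these r values was not tested.

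**Figure D4:**
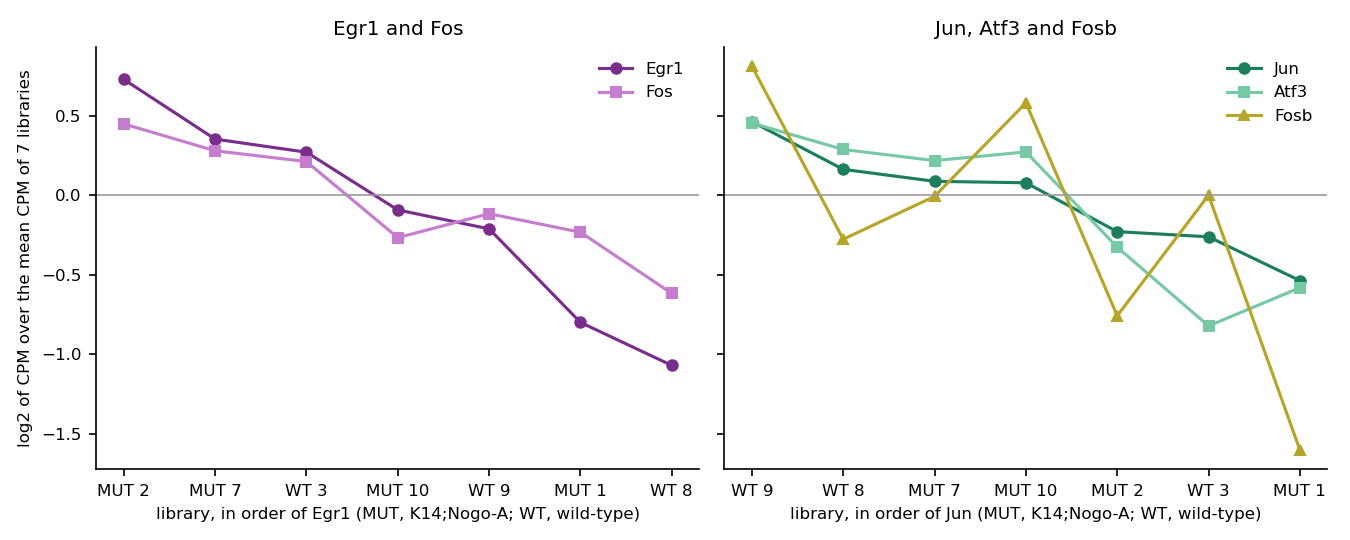
Log2 of each library's CPM over the gene's mean of 7 libraries (vertical axis), with libraries ordered by Egr1 (left) or Jun (right) along the horizontal axis, MUT for K14;Nogo-A and WT for wild-type. Egr1 and Fos share their top 3 libraries, and Jun, Atf3 and Fosb share wild-type replicate 9 as their highest.

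The wider early genes had a low median r with both, 0.15 with Jun and 0.09 with Egr1, and some were much closer to Jun. Of 36 further early genes with a mean of at least 5 CPM, 7 had r of at least 0.8 with Jun (19.4%, beside 2.91% of 11288 genes), and 0 had it with Egr1 (beside 3.06% of genes). This limit was set after the values were seen, the nearest genes to it were Ccn2 at 0.80 with Jun and Trib1 at 0.79 with Egr1, the difference between the counts was not tested, and genes that share libraries are not independent. The 7 were Klf10, a zinc finger repressor induced by TGF-beta, at 0.96, Errfi1, a feedback inhibitor of the EGF receptor, at 0.95, the kinase Pim1 at 0.88, Ppp1r15a, which restores translation after stress, at 0.88, Csrnp1 at 0.85, the clock repressor Bhlhe40 at 0.82, and Ccn2, a matrix protein. Trib1 is a pseudokinase. Egr3, a relative of Egr1, had r of -0.37 with it.

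Of the 9 lists, those of ameloblasts and of red blood cells had the highest r with Egr1 over the libraries. The ameloblast list had r of 0.82 with Egr1 (rho 0.86, exact permutation p = 0.0183, adjusted p = 0.261 over 18 relations of 9 lists with Egr1 or Jun) and 0.64 without the 2 farthest libraries. The 6 erythroid markers tested had r of 0.81 (rho 0.82, exact permutation p = 0.029, adjusted p = 0.261) and 0.69 without the 2 farthest. Mutant replicate 2, the library with most Egr1, was at 9.57 for the ameloblast list and 5.07 for the erythroid list, and wild-type replicate 8, with least, was at 7.65 and 4.16. Other lists also moved with Egr1 or against it: epithelium had r of 0.66 (0.62 without the 2 farthest) and muscle 0.57 (0.48). Mesenchyme had -0.56 (-0.73 without the 2 farthest), endothelium 0.23 (-0.75), and Schwann cells and neurons -0.41 (-0.74). These r values with lists are pooled over the genotypes and were not centred. All markers of the mesenchyme and endothelium lists had negative log2 fold changes, and all of the ameloblast list positive ones. The part of genotype in these r values was not tested. With Jun the ameloblast and erythroid lists had r of -0.02 and 0.28. The part of either cell type in the level of Egr1 was not tested. The mean of the list of heat shock genes, which answer to handling and heat, had r of 0.41 with Egr1 and 0.17 with Jun. Its single genes were uneven: r with Egr1 ran from -0.61 for Hspa8 to 0.90 for Hspa1a, with Hspa1b at 0.77.

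The 10 genes with the most similar profile to the mean of the early genes, out of 11281 outside them, were Tef, Fbln1, Fam189b, Rbfox2, Ap2a1, Gnai2, Ntrk2, Adgrl1, Ppp1r21 and Slc39a1, with r from 0.95 down to 0.93 over 7 libraries. None is in the early gene lists. The mean itself was lowest in mutant replicate 1, 0.30 below its average on the log2 scale, and highest in wild-type replicate 9, 0.23 above it, and the centred values of both genotypes overlapped.

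The wider early response was looked at through 48 further early genes, of which 43 were tested. Egr4 had no count in any library, and Npas4, Ereg, Cxcl1 and Il6 were too low to test. At the study's thresholds 1 was higher in mutants and 2 were lower, beside 4.77% of all genes tested in either direction. In edgeR's quasi-likelihood test 0 were called by adjusted p, and 9 had an unadjusted p under 0.05, beside 12.9% of all genes. Without overlap between the genotypes, 2 were higher in mutants and 3 lower, beside 11.5% of all genes. The median log2 fold change was -0.09. Gadd45b, a stress sensor that activates p38 signalling, stood at 57.2, 49.6, 57.2 and 51.3 CPM in mutants and 36.4, 26.1 and 45.7 CPM in wild-type, so that every mutant was above every wild-type library. Its log2 fold change was 0.58 (standard error 0.16), with an adjusted p of 0.22 in edgeR, and without wild-type replicate 8 it was 0.40, under the study's thresholds. Ccn1, a matrix protein that signals through integrins, stood at 10.6, 6.94, 12.1 and 13.2 CPM in mutants and 15.1, 22.1 and 17.6 CPM in wild-type. DESeq2 called Gadd45b at an adjusted p of 0.0404, edgeR without wild-type replicate 9 called it at 0.0478, DESeq2 called Ccn1 at 0.0279, and the likelihood-ratio test called Ccn1 at 0.0485. Over all genes, DESeq2 called 288, edgeR without wild-type replicate 9 called 93 and the likelihood-ratio test 166, beside 5 in the main fit. All mutants were lower for Ccn1, and the log2 fold change was -0.77 (standard error 0.21), with an adjusted p of 0.22 in edgeR. Ptgs2, the inducible cyclooxygenase, was near the limit of detection with 1 to 11 counts in mutants and 20 to 46 in wild-type, at a log2 fold change of -1.48 with a standard error of 0.51 and an adjusted p of 0.28 in edgeR. Without wild-type replicate 3 Ptgs2 was at -1.22 and no longer past the thresholds. The endothelium and mesenchyme markers had negative log2 fold changes as well. With the mesenchyme mean as a covariate Ccn1 was at -0.23, Ptgs2 at 0.57 and Gadd45b at 0.57, none of them past the thresholds.

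**Figure D5:**
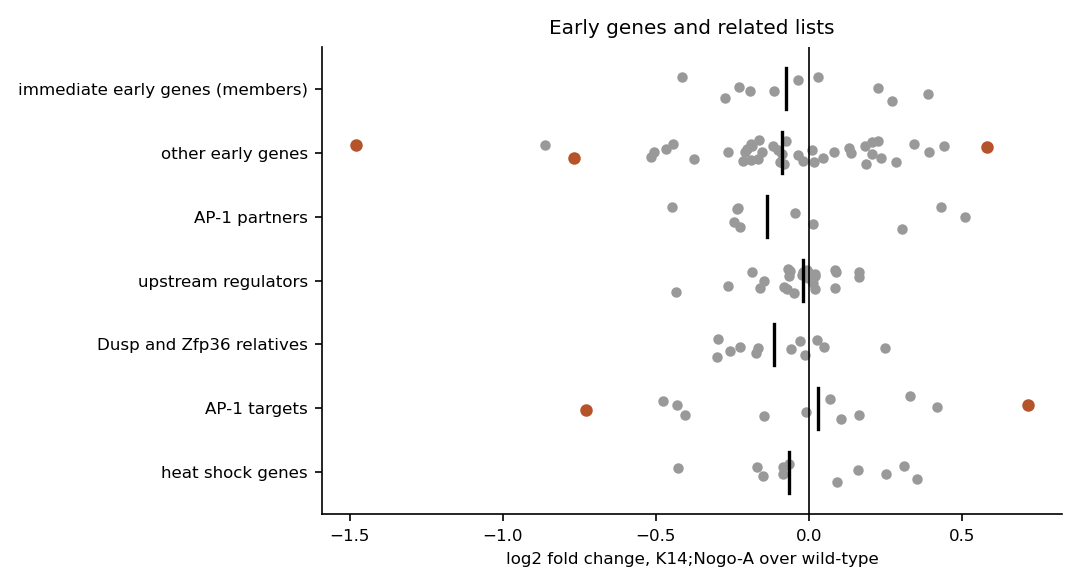
Log2 fold change of mutant over wild-type (horizontal axis) for the tested genes of each list, with the median as a black bar and genes past the study's thresholds in colour. The 10 early genes, their AP-1 partners, upstream regulators, relatives and heat shock genes have no coloured point, and 3 other early genes and 2 AP-1 targets do.

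Among the partners, regulators and relatives of the early genes 0 passed the study's thresholds, and 6 of 47 tested had an unadjusted p under 0.05 in edgeR. Over all genes tested these shares were 4.77% and 12.9%. Of 12 further AP-1 partners 10 were tested, Fosl1 and Batf2 being too low, and 0 passed the study's thresholds. Jdp2, a leucine zipper protein that represses AP-1, had the smallest p, with 12.4 ± 1.95 CPM (SD, n = 4) in mutants and 17.0 ± 2.29 CPM (SD, n = 3) in wild-type, a log2 fold change of -0.45 with a standard error of 0.15 and an adjusted p of 0.27 in edgeR. It was past the thresholds without mutant replicate 7 (-0.56) or wild-type replicate 3 (-0.54). Of 25 genes upstream of the response 0 passed. Srf, serum response factor itself, was level at 65.2 ± 3.91 CPM in mutants and 66.2 ± 4.44 CPM in wild-type, and its ternary complex partners Elk1, Elk3 and Elk4 had log2 fold changes of -0.18, -0.27 and -0.16, with unadjusted p in edgeR of 0.085, 0.0324 and 0.139. Rps6ka3, a kinase downstream of ERK, had the smallest p of the upstream genes. It measured 80.0, 90.5, 88.0 and 79.5 CPM in mutants and 118, 121 and 104 CPM in wild-type. All mutants were lower, as they were for Elk1 and Elk3. Of the 25 upstream genes 1 was separate with the mutants higher and 3 with them lower. Over all genes tested 11.5% were separate in either direction. Rps6ka3 had a log2 fold change of -0.44 with a standard error of 0.09 and an adjusted p of 0.17 in edgeR. It was called by DESeq2 (adjusted p = 0.00766), by the likelihood-ratio test (adjusted p = 0.0204) and in edgeR without wild-type replicate 9 (adjusted p = 0.0498). With the mesenchyme mean as a covariate Rps6ka3 was at -0.60 and Elk3 at -0.68, both past the study's thresholds.

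Of 12 phosphatases and zinc finger proteins related to Dusp1 and Zfp36, 0 passed, and 9 had negative log2 fold changes. Zfp36l2, which shares the RNA-binding fingers of Zfp36, had the smallest p, at 45.5 ± 3.50 CPM in mutants and 55.9 ± 5.05 CPM in wild-type (log2 fold change -0.30, standard error 0.10, adjusted p = 0.28 in edgeR), the opposite sign to Zfp36, and at -0.64 with the mesenchyme covariate it was past the thresholds. Of 16 genes known as AP-1 targets 12 were tested. Mmp13, a collagenase, was at 28.2 ± 8.11 CPM in mutants and 46.8 ± 9.98 CPM in wild-type, and its log2 fold change was -0.73 (standard error 0.21), with an adjusted p of 0.24 in edgeR, while DESeq2 called it at an adjusted p of 0.0397. Plaur, the urokinase receptor, went the other way at 16.8 ± 5.35 and 10.3 ± 0.962 CPM, with a log2 fold change of 0.72, a standard error of 0.24 and an adjusted p of 0.28 in edgeR, and mutant replicate 1 at 9.28 CPM lay within the wild-type range. Plaur was not past the thresholds without wild-type replicate 8, at 0.65 with an unadjusted p of 0.0515 in edgeR. With the Y-linked covariate it was at 0.40, also not past them. It turned to -0.97 with the mesenchyme covariate (unadjusted p = 0.0269 in edgeR), past the thresholds in the other direction. Plaur was called without mutant replicate 1 (0.92, adjusted p = 0.0131 in edgeR), in a fit that called 221 of 14771 genes. Of 11 heat shock genes 0 passed, and Hsp90aa1, a cytosolic chaperone, had the smallest p (log2 fold change -0.43, standard error 0.16, adjusted p = 0.31 in edgeR) and was past the thresholds without wild-type replicate 9, at -0.59.

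Reads in 4 of the genes share exon sequence with a gene on the other strand, and no source used here says whether the counting used strand, while the kit is stranded in the labels and TruSeq v2 in the paper. Junb, with 721 to 1614 counts per library, shares 173 of its 2301 exon bases with Prdx2, which held 160577 counts over the 7 libraries. Jun shares 232 of 3189 with Junos, Zfp36 125 of 3470 with Gm44710, and Dusp1 11 of 3311 with Ergic1, so that reads from those stretches cannot be assigned with certainty. With the Y-linked level as a covariate, Jun had a log2 fold change of -0.48 (adjusted p = 0.22 in edgeR) and Fosb of -0.99 (adjusted p = 0.34), the latter then past the study's thresholds.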

How the data were processed

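The authors deposited whole-number read counts for Ensembl genes, unscaled, from this chain: bcl2fastq 2.19, adapter removal with Trimmomatic (processing notes) or fastp (paper), alignment with STAR 2.7.1 to GRCm38 and counting with featureCounts. The kit used poly(A) selection. Totals were 20929207 to 41219439 counts per library, and intervals of counts cover counting error only. Gene IDs were joined to GENCODE symbols (25664 of 25700 matched). A gene needed 10 or more counts in 50% or more of one genotype's libraries and was then tested with the quasi-likelihood test of edgeR 4.0.16 (R 4.3.3) after TMM scaling, without covariates, with Benjamini-Hochberg adjustment over 14791 genes. The study's thresholds give a fold change of 0.5, read here as a log2 ratio. CPM used TMM library sizes, and log2 CPM a prior count of 2. RPKM used merged exon length. Permutation tests (scipy 1.17.1) were exact. limma 3.58.1 and DESeq2 1.42.0 served as alternatives, and the edgeR fit was tested on simulated data. Samples were grouped by their labels. The 10 genes and all lists were chosen with earlier results of these data known. Named are all 10 genes, of each other list the genes past the thresholds (up to 6) or the one with the smallest p, Srf and its partners Elk1, Elk3 and Elk4, and the 10 genes most like the mean of the early genes. Trib1, Egr3 and the genes listed for their r with Jun were chosen after their values were seen.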

Additional observations from a re-analysis of the deposited data

Results flagged for a closer look

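Of 23 named genes screened for a mutant library far from the other 3, 3 had one, and chance alone marks about 1 in 20 groups. Junb was at 31.9 CPM in K14;Nogo-A replicate 2, against 41.03 to 42.9 CPM in the other mutants. Dusp1 was at 28.3 CPM in the same library, against 34.4 to 35.2 CPM. Elk3 was at 62.4 CPM in K14;Nogo-A replicate 1, against 79.3 to 82.7 CPM. Wild-type has 3 libraries and was not screened.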

How the results depend on the processing

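The count of early genes called at an adjusted p under 0.05 was 0 under every alternative run: other scaling (upper-quartile, RLE), other tests (DESeq2, limma-voom, likelihood-ratio), both other filters, both covariates and each library left out. Past the study's thresholds it was 1 with the Y-linked covariate (Fosb) and 1 with the mesenchyme covariate (Jun), and 0 otherwise. For the other early genes that count, 3 in the report, was 2 to 6 when each library was left out, rising to 6 when mutant replicate 1 was dropped and to 5 when wild-type replicate 9 was, where the cause was not tested. Of 160 alternative estimates for the 10 genes, 11 changed sign. With the mesenchyme covariate, which does not overlap between the genotypes, Fos was at -0.69, Egr1 at -1.62, Ier2 at 0.0134, Ptgs2 at 0.57, Elk4 at 0.11 and Plaur at -0.97. Atf3 was at 0.0184 in limma-voom. With each library left out, Junb ran from -0.0171 to 0.12, Atf3 from -0.42 to 0.12, Ier2 from -0.107 to 0.066 and Srf from -0.0745 to 0.0154. No paired analysis was possible. The paper compares the mutants with control littermates, and the labels used here name no litter. Fosb rests on 8 to 47 counts per library and Ptgs2 on 1 to 46.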
